A study of Rattus norvegicus with 35 samples.

Results

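The genes of IL-33, IL-4 and IL-13 signalling examined here are Il33, Tslp, Il4, Il5 and Il13 (ligands), Il1rl1, Il4r, Il13ra1 and Il13ra2 (receptors) and Stat6 (transcription factor). They were found as the non-control probes that carry one of these gene names on the array, which gave 14 probes for 10 genes out of 45598 probes for 34766 gene names. The brightest probe stood for a gene, and the filter on dim signal (5 or more arrays well above background) passed 9 of the 10 genes and 13 of the 14 probes to the tests. Il4 was the gene left out.

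One-colour Agilent arrays, 1 per animal, measured RNA of the accessory lobe of the lung in 35 rats, all female Sprague Dawley. The animals were 12 weeks old when instillation began, were instilled into the trachea 4 times at weekly intervals, and were examined 3 days after exposure. The 6 groups were WT rats given Mitsui-7 (n = 6), WT rats given NM-403 (n = 6), WT vehicle controls (n = 6), rats heterozygous for p53 (p53het) given Mitsui-7 (n = 6), p53het rats given NM-403 (n = 5) and p53het vehicle controls (n = 6). Both materials are carbon nanotubes with many walls, given at 0.25 mg per rat, and the labels do not say whether that is per instillation or in total. All groups, controls included, received the vehicle Pluronic, and the sources used here do not say how the p53 allele was altered.

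IL-33 is an alarmin that epithelial and endothelial cells hold in the nucleus and release when they are damaged. It binds ST2, the product of Il1rl1, on mast cells, group 2 innate lymphoid cells and T helper 2 cells, which respond with IL-5 and IL-13 and, for some of them, IL-4. IL-4 and IL-13 share a receptor made of the IL-4 receptor alpha chain and IL-13 receptor alpha 1, which activates STAT6 and thereby mucus and alternative macrophage genes, while IL-13 receptor alpha 2 binds IL-13 tightly and limits its action.

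The probes the results turn on are shown because each value below is the signal of 1 such 60-base oligonucleotide. They are written 5′ to 3′, with positions on the rat build rn4 as the array files give them. Where all 3 forward reading frames of a probe held a stop codon, only its first 30 bases are given. Capitals mark a run of at least 20 bases also found, on either strand, in a probe of another gene.
Il33, A_44_P310596, chr1:233685259-233685318, plus strand, first 30 bases: ccaacatatccgtaacaggtctccttctca
Il4, A_43_P16025, chr10:39074590-39074649, minus strand: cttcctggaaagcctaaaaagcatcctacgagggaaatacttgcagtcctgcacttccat
Il5, A_64_P102783, chr10:39180598-39180657, plus strand: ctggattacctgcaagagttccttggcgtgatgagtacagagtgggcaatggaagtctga
Il4r, A_44_P337300, chr1:184636781-184636840, plus strand: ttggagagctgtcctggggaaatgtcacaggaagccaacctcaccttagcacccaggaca
Il13ra2, A_64_P109028, chrX:30506824-30506883, minus strand: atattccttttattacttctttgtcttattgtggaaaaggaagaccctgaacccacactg
Il13ra2, A_44_P102685, chrX:30514136-30514195, minus strand: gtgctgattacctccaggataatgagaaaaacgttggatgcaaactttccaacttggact
Il1rl1, A_44_P365584, chr9:39619275-39620742, plus strand: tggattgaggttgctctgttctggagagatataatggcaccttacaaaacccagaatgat

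Of the 14 member probes only the brightest Il1rl1 probe, A_44_P1109059 (chr9:39626701-39626760), shared such a run with another gene's probe. The run is 21 bases long, CAGAGAAACCCTGTCTCAAAA at bases 32 to 52 of the probe, and it occurred in 1 of 45595 probes of other genes and in 1 of 33469 RefSeq promoters of build GRCr8. Over the whole array 6.27% of probes shared 20 or more bases with a probe of another gene. Only exact matches to probes and promoters were counted, so these figures do not show how common similar sequences are in the genome. The Il1rl1 probe A_44_P365584 spans 1468 bases of rn4 with 60 bases of sequence, so it is split in the genome. The other Il1rl1 probe, A_43_P11672, lies at chr9:39617225-39617284. The files name the 3 Il1rl1 probes after a predicted transcript (A_44_P1109059), transcript variant 2 (A_44_P365584) and transcript variant 1 (A_43_P11672), and do not say which of them encode the membrane-bound and the soluble receptor. The probes of Il4, Il13 and Il5 lie next to each other on chromosome 10, with 18.9 kb between those of Il4 and Il13 and 87.0 kb between those of Il13 and Il5. Exon and UTR positions of the probes were not analysed here.

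Levels are log2 of the processed signal minus the 75th percentile of the same array, so 0 is the signal of a probe brighter than 75% of those on that array. The 75th percentile itself was 9.63 to 11.1 in log2 units (median 10.4), 66.1 to 86.4% of probes per array were well above background (median 71.5%), and no member probe was saturated. The lowest level that counted as well above background was -7.76 to -6.32, depending on the array. WT Mitsui-7 replicate 5 had the highest share of probes above background (86.4%), and p53het control replicate 6 the lowest mean correlation with its own group (0.956, in a range up to 0.984). Arrays were spread over 5 slides and 3 scan days, with each group on 4 or 5 slides, and the mean correlation of residuals was 0.22 for pairs of arrays within a slide (106 pairs), against -0.08 for pairs across slides (489 pairs). Values with slide as a block are therefore given where they move a call. The animals are separate, and bulk tissue cannot tell fewer cells of a type from less RNA per cell.

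Of the 9 tested genes, 2 passed the test in p53het rats given Mitsui-7 against p53het controls (Il33 and Il4r, both lower), 1 in WT rats given Mitsui-7 against WT controls (Il4r, lower) and 1 in WT rats given Mitsui-7 against WT rats given NM-403 (Il13ra2, higher). None passed in either genotype for NM-403 against control, or for Mitsui-7 against NM-403 in p53het rats. Over all 24468 genes tested with limma at a Benjamini-Hochberg adjusted p of 0.05, 11.6% passed for p53het Mitsui-7 against control, 14.0% for WT Mitsui-7 against control, 3.33% for WT Mitsui-7 against NM-403, 3.20% for WT NM-403 against control, 1.52% for p53het NM-403 against control and 1.37% for p53het Mitsui-7 against NM-403. The members' share for Mitsui-7 against control, 2 of 9 and 1 of 9, is thus near that of all genes. At an unadjusted p under 0.05 limma counted 1 of 9 members (Il33) and 3691 of 24468 genes for WT NM-403 against control. For p53het NM-403 against control it counted 1 member (Il33) and 2927 genes. For Mitsui-7 against control it counted 3 members and 6656 genes in WT and 2 and 6089 in p53het rats. For Mitsui-7 against NM-403 it counted 2 members and 3355 genes in WT and 2 and 3033 in p53het rats. Comparisons with control in 1 genotype share the same 6 control arrays.

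**Figure D1:**
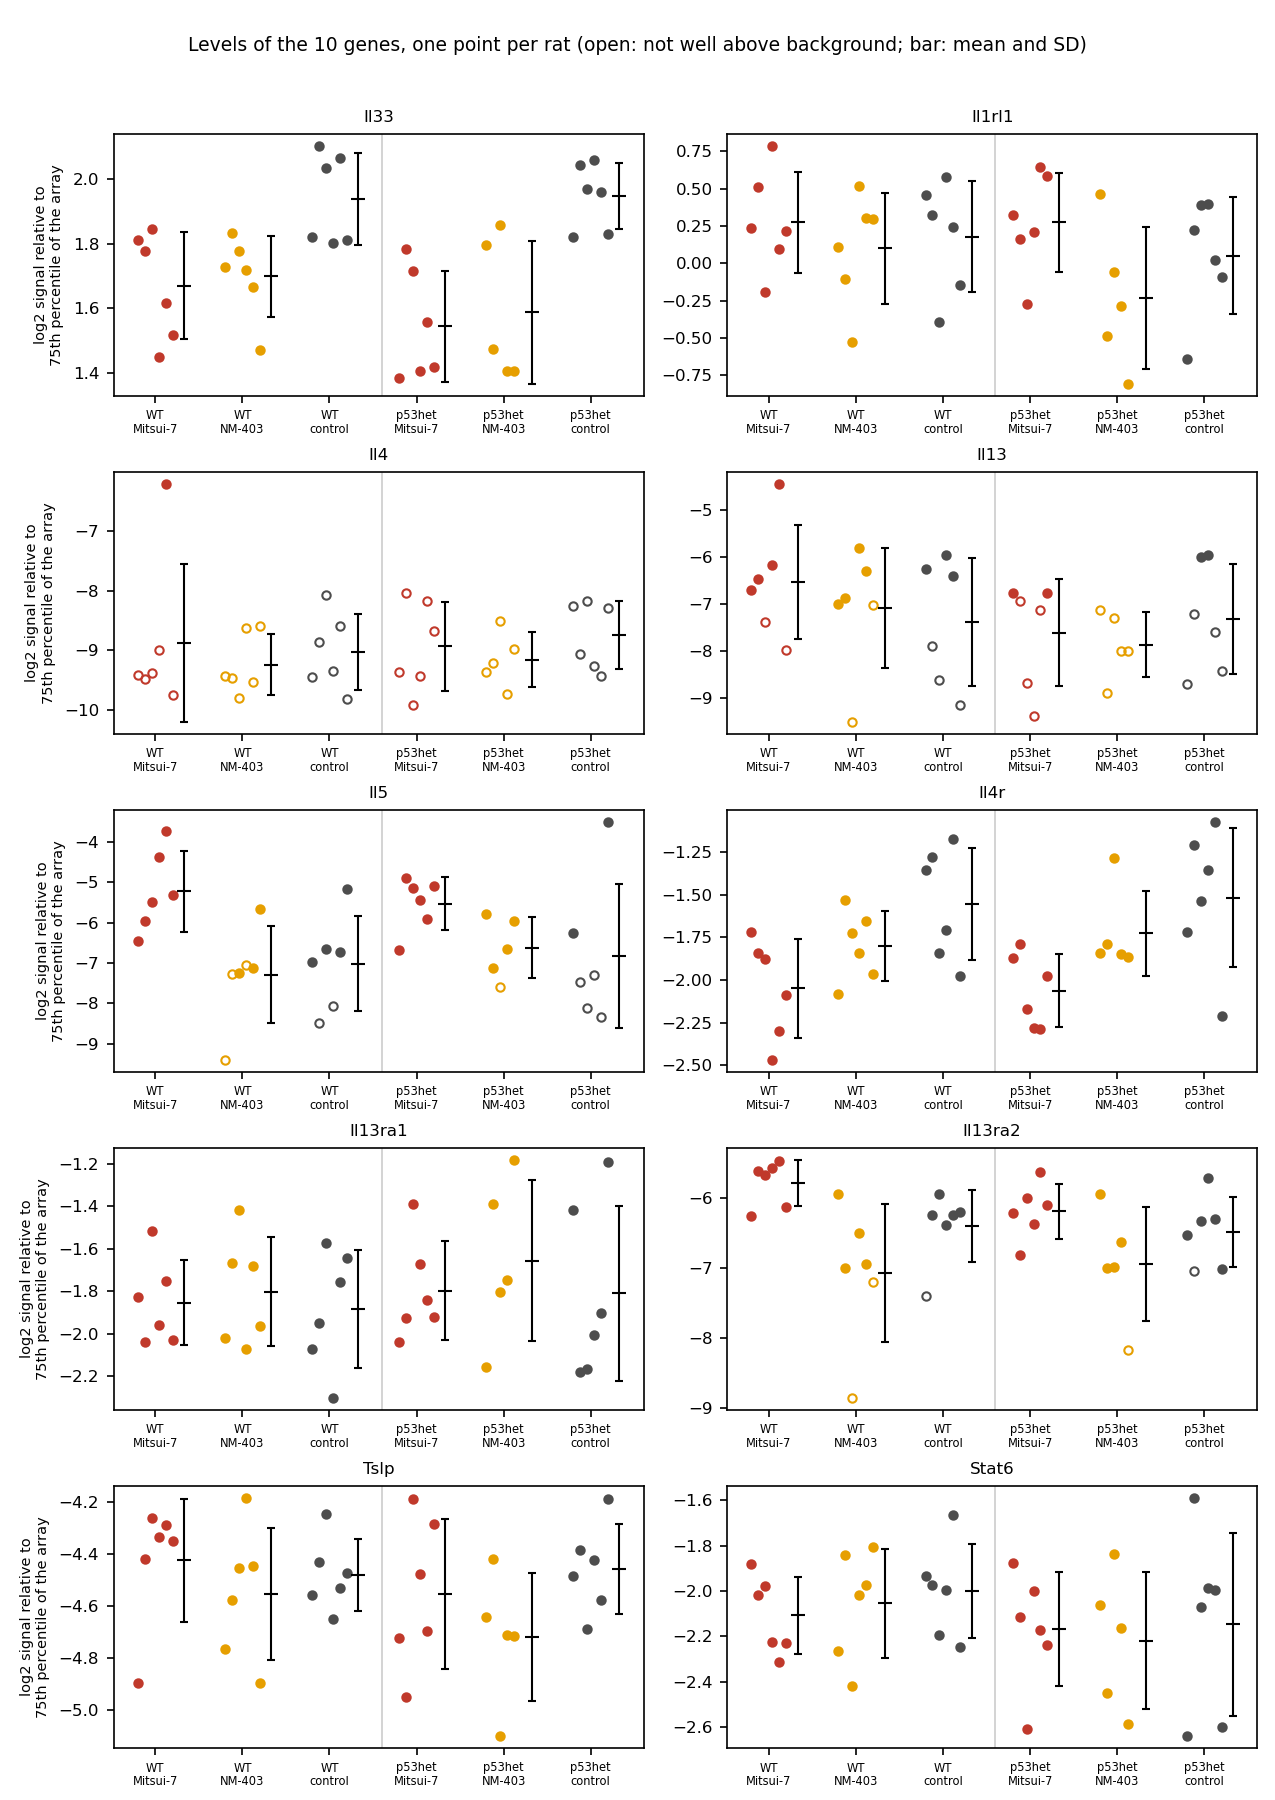
Level of each of the 10 genes in every rat, as log2 signal relative to the 75th percentile of the array (each panel has its own axis), by group; filled points are well above background, open points are not, and the bar gives mean and SD. All 6 p53het Mitsui-7 rats lie below all 6 p53het controls for Il33, while nearly all points of Il4 are open.

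Il33 was bright and varied little within a group. In p53het rats given Mitsui-7 its level was 1.38 to 1.79 (median 1.49), against 1.82 to 2.06 (median 1.96) in p53het controls. The ranges did not overlap: every exposed rat was below every control. The difference was -0.40 ± 0.10 (SE), 1.32-fold lower, with a limma adjusted p of 0.0046 and a 95% interval of -0.60 to -0.21. Without p53het control replicate 6 it was -0.43 (adjusted p = 0.00458). It was negative on each of the 5 slides that held both groups (-0.66 to -0.11), and it passed in each of the 15 alternative settings and with any 1 of the 12 rats left out.

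In WT rats the Il33 level was 1.45 to 1.85 (median 1.70) with Mitsui-7, against 1.80 to 2.10 (median 1.93) in controls. With Mitsui-7, 4 of 6 rats were below all controls. The difference was -0.27 ± 0.10 (adjusted p = 0.0565, interval -0.46 to -0.07) and did not pass. With slide as a block it did, at -0.26 (adjusted p = 0.0174), and it was negative on all 4 shared slides (-0.35 to -0.04). It also passed without WT control replicate 4 or 6 or WT Mitsui-7 replicate 1 or 3 (-0.30, -0.29, -0.30 and -0.30, adjusted p = 0.0472, 0.0486, 0.0433 and 0.0411).

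With NM-403, Il33 was at 1.80, 1.47, 1.86, 1.41 and 1.41 in the 5 p53het rats, against 1.82 to 2.06 in their controls, and 4 of 5 exposed rats were below all controls. The difference was -0.36 ± 0.10 (adjusted p = 0.0626, interval -0.56 to -0.15). It did not pass in the fit without slide and did pass with slide as a block (-0.36, adjusted p = 0.00997), negative on all 4 shared slides (-0.64 to -0.10). It passed too without p53het NM-403 replicate 1 (-0.41, adjusted p = 0.0287) or replicate 3 (-0.43, adjusted p = 0.032). WT rats given NM-403 had levels of 1.47 to 1.83 (median 1.72), with 5 of 6 below all WT controls, and a difference of -0.24 ± 0.10 (adjusted p = 0.197, interval -0.44 to -0.04). The 2 nanotubes did not differ for Il33 past the threshold: Mitsui-7 minus NM-403 was -0.04 (interval -0.25 to 0.16) in p53het rats and -0.03 (-0.22 to 0.17) in WT rats.

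Marker genes of cell types that can hold Il33 moved in the same samples. In p53het rats given Mitsui-7, 6 of 10 endothelial and 4 of 8 alveolar type 1 markers fell (median log2 difference over the list -0.57 and -0.33), while 0 of 9 alveolar type 2 markers passed the limma test (median 0.11), beside a median of -0.02 over all genes. In WT rats given Mitsui-7 the counts were also 6 of 10 and 4 of 8 lower and 0 of 9 (medians -0.63, -0.34 and -0.03). Over all genes 11.6% passed in p53het and 14.0% in WT rats given Mitsui-7, in either direction. Summed over the endothelial list, the level (linear, in units of the array's 75th percentile) was 29.3 to 41.8 with Mitsui-7, against 49.6 to 57.5 in controls, in p53het rats, and 25.4 to 39.7 with Mitsui-7, against 47.9 to 56.6 in controls, in WT rats. Over the alveolar type 1 list the sum was 148 to 172 with Mitsui-7, against 169 to 235 in controls, in p53het rats, and 149 to 165, against 176 to 196, in WT rats. Over the alveolar type 2 list it was 259 to 369 with Mitsui-7, against 228 to 384 in controls, in p53het rats, and 243 to 292, against 243 to 286, in WT rats. With NM-403, 2 of 8 alveolar type 1 and 0 of 10 endothelial markers fell in p53het rats (medians -0.19 and -0.24) and 1 of 8 and 0 of 10 in WT rats (medians -0.27 and -0.32). Fibroblast markers moved too. With Mitsui-7, 3 of 8 fell and 1 rose in WT rats and 2 of 8 fell in p53het rats (medians -0.21 and -0.29). With NM-403, 1 of 8 fell in WT and 0 of 8 in p53het rats (medians -0.41 and -0.41). Over all genes 3.20% passed in WT and 1.52% in p53het rats given NM-403, in either direction. No marker of these lists was below background on all 35 arrays, and the part these cells have in the Il33 values was not tested.

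The genes whose levels followed Il33 most closely over the 35 arrays, among 13243 named genes above background on every array, were Mfhas1, Rnase4 and Tns3. Their Pearson r was 0.86, 0.84 and 0.84, and 0.68, 0.64 and 0.69 after the group means were removed. All points come from the same arrays and share their scaling, so these are descriptions.

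Tslp, an epithelial alarmin that acts on dendritic and lymphoid cells, was above background on all 35 arrays and passed no test. Its level was -4.89 to -4.26 in WT Mitsui-7, -4.90 to -4.19 in WT NM-403 and -4.65 to -4.25 in WT control rats, and -4.95 to -4.19 in p53het Mitsui-7, -5.10 to -4.42 in p53het NM-403 and -4.69 to -4.19 in p53het control rats. The groups overlapped throughout. The furthest difference from 0 was p53het NM-403 minus control, -0.26 (interval -0.54 to 0.02, limma adjusted p = 0.474). It was negative on all 4 shared slides (-0.52 to -0.22), and 3 of 5 NM-403 rats were below all controls. In p53het rats Mitsui-7 minus NM-403 was 0.16 (-0.12 to 0.45, adjusted p = 0.653), positive on all 4 shared slides. For Mitsui-7 against control the intervals were -0.37 to 0.18 in p53het and -0.21 to 0.33 in WT rats.

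Il4 stayed at background. Its probe was well above background on 1 of 35 arrays, WT Mitsui-7 replicate 5, where the level was -6.21. On the other WT Mitsui-7 arrays it was -9.75 to -8.99, and in WT NM-403 and WT control rats -9.80 to -8.59 and -9.82 to -8.08. In p53het rats it was -9.92 to -8.04 with Mitsui-7, -9.73 to -8.50 with NM-403 and -9.43 to -8.17 in controls. The single array above background is the one with the highest share of probes above background. No fold change is given, because at this signal a difference between groups is not detectable.

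Il13 was near background. It was well above it on 15 of 35 arrays: 4 of 6 in WT Mitsui-7, 4 of 6 in WT NM-403, 3 of 6 in WT control, 2 of 6 in p53het Mitsui-7, 0 of 5 in p53het NM-403 and 2 of 6 in p53het control rats. Levels were -7.97 to -4.45 (median -6.58) in WT Mitsui-7 rats, against -9.15 to -5.96 (median -7.14) in WT controls, and the highest value of all was again WT Mitsui-7 replicate 5. WT NM-403 rats were at -9.49 to -5.80 (median -6.93). In p53het rats they were -9.37 to -6.76 (median -7.02) with Mitsui-7, -8.87 to -7.13 (median -7.99) with NM-403 and -8.68 to -5.96 (median -7.40) in controls. The groups overlapped, and no difference passed the limma test. Mitsui-7 minus control was 0.85 (interval -0.47 to 2.18, adjusted p = 0.439) in WT rats and -0.29 (-1.62 to 1.04, adjusted p = 0.841) in p53het rats, and both intervals are wide. Without WT Mitsui-7 replicate 5 the WT difference was 0.44 (adjusted p = 0.772). In p53het rats no NM-403 array was above background for Il13, and NM-403 minus control was -0.55 (interval -1.94 to 0.84, adjusted p = 0.811). With only 2 of 6 control arrays above background, that difference rests mostly on signal below background, so its size is not a measured change.

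Il5, the cytokine that matures and recruits eosinophils, had the widest range within p53het controls of the 9 tested genes. It was well above background on all 6 arrays of WT Mitsui-7 and of p53het Mitsui-7 rats, on 3 of 6 in WT NM-403, 4 of 6 in WT control, 4 of 5 in p53het NM-403 and 2 of 6 in p53het control rats. WT Mitsui-7 rats had levels of -6.46 to -3.73 (median -5.40), WT NM-403 rats -9.40 to -5.66 (median -7.19) and WT controls -8.49 to -5.16 (median -6.85). With Mitsui-7, 4 of 6 rats were above all WT NM-403 rats and 2 of 6 above all controls.

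The Il5 difference in WT rats was 1.79 ± 0.65 for Mitsui-7 against control (interval 0.46 to 3.12, limma adjusted p = 0.0627) and 2.07 ± 0.65 for Mitsui-7 against NM-403 (0.74 to 3.4, adjusted p = 0.0793). Neither passed, and both did with slide as a block (1.82, adjusted p = 0.0313, and 2.14, adjusted p = 0.0346). Within slides both were positive on all 4 shared slides (0.64 to 3.70 and 1.14 to 5.03). The first passed without WT control replicate 6 (2.16, adjusted p = 0.0246) or WT Mitsui-7 replicate 1 (2.04, adjusted p = 0.0394), and the second without WT NM-403 replicate 6 (2.40, adjusted p = 0.0396). Without WT Mitsui-7 replicate 5 they were 1.5 (adjusted p = 0.168) and 1.77 (adjusted p = 0.240).

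In p53het rats Il5 was at -6.68 to -4.90 (median -5.30) with Mitsui-7, -5.80, -7.12, -7.60, -6.64 and -5.97 with NM-403 and -8.35 to -3.51 (median -7.39) in controls. A single control, replicate 6, had the highest Il5 level of all 35 rats, and the other 5 controls were at -6.26 or below. Mitsui-7 minus control was 1.31 ± 0.65 (interval -0.02 to 2.64, adjusted p = 0.210). Without that control it was 1.97 (adjusted p = 0.0184) and passed, so this call depends on 1 array. With array weights the p53het difference was 2.06 (adjusted p = 0.00793), and with slide as a block 1.5 (adjusted p = 0.0762). Normexp background correction gave 0.61 in WT and 0.21 in p53het rats for Mitsui-7 against control (adjusted p = 0.0917 and 0.825).

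Markers of the cells that make or answer to IL-5 moved in part of the same samples. For WT Mitsui-7 against control, 4 of 11 tested mast cell and basophil markers rose and 1 fell (list median 0.89), 3 of 13 T cell and type 2 lymphoid markers rose (median 0.05) and 1 of 5 eosinophil markers rose (median 0.13), beside a median of 0.03 over all genes. For p53het Mitsui-7 against control these were 5 up and 2 down of 11 (median 0.69), 3 of 13 up (median -0.21) and 0 of 5 (median -0.12). Over all genes 14.0% passed in the WT and 11.6% in the p53het comparison, in either direction. The eosinophil list summed to 0.254 to 0.518 in WT Mitsui-7 and 0.236 to 0.348 in WT control rats, and to 0.220 to 0.354 in p53het Mitsui-7 and 0.252 to 0.365 in p53het control rats. Its member Prg3 was below background on all 35 arrays. The mast cell and basophil list summed to 3.77 to 6.64 in WT Mitsui-7 and 3.51 to 5.97 in WT control rats, and to 2.93 to 6.05 in p53het Mitsui-7 and 4.05 to 6.02 in p53het control rats. The T cell and type 2 lymphoid list summed to 2.98 to 3.89 in WT Mitsui-7 and 2.56 to 3.58 in WT control rats, and to 2.90 to 3.73 in p53het Mitsui-7 and 2.56 to 4.54 in p53het control rats. The part of these cells in the Il5 values was not tested. Over the 35 arrays Il5 followed Pgm5, Mapkbp1 and Ccdc25 most closely (r = 0.90, 0.88 and 0.87, and 0.86, 0.85 and 0.83 without group means).

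**Figure D2:**
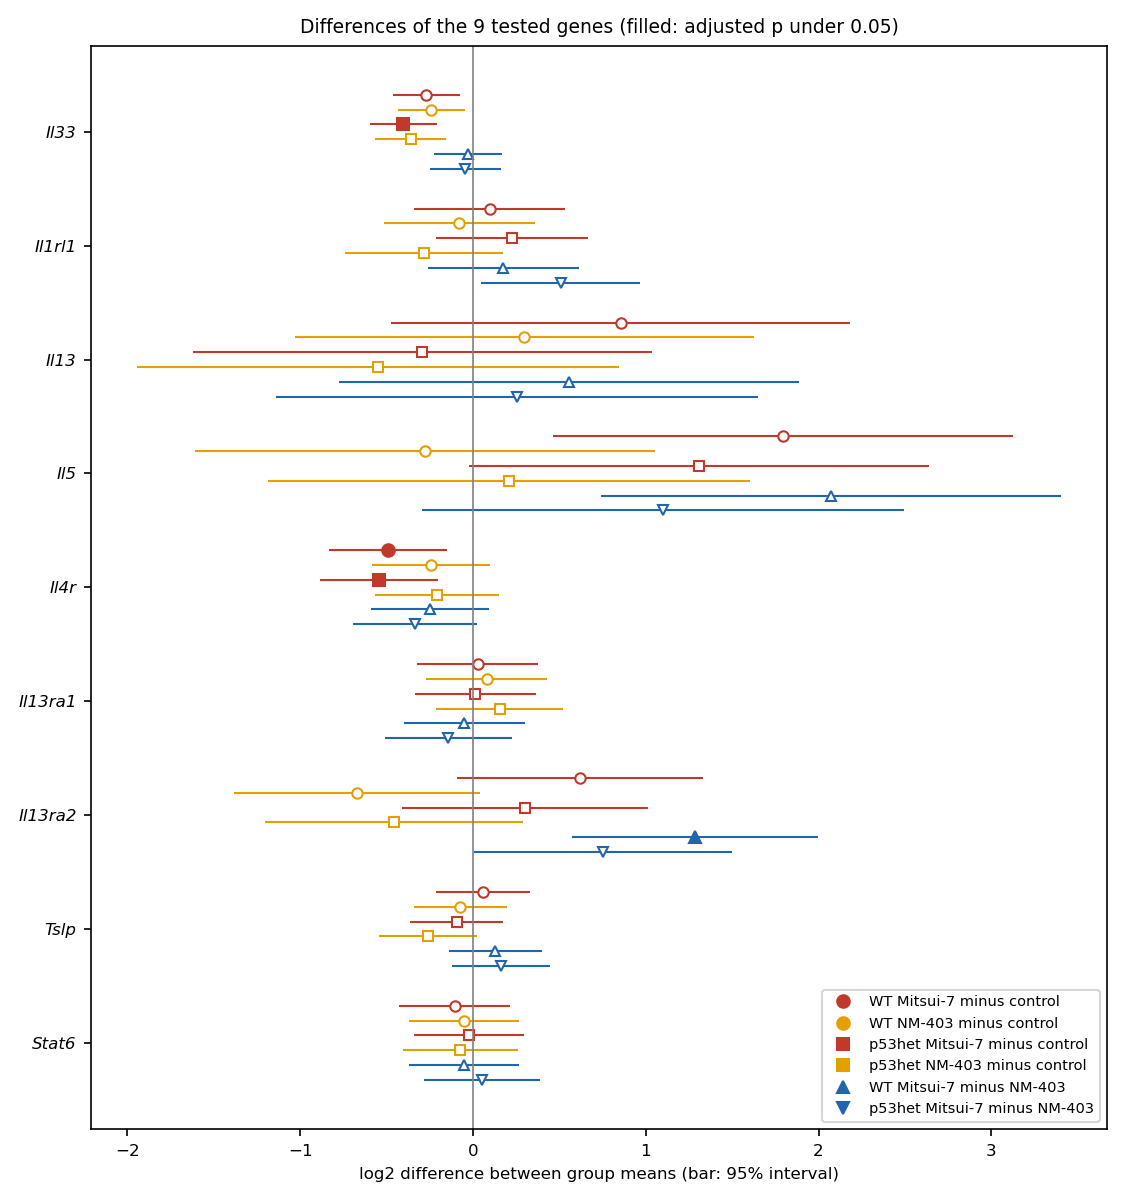
Log2 difference between group means for the 9 tested genes with its 95% interval, in both genotypes, for the nanotubes against control and against each other; filled symbols have an adjusted p under 0.05. The 4 filled symbols are Il33 (p53het Mitsui-7, -0.40), Il4r (WT and p53het Mitsui-7, -0.49 and -0.55) and Il13ra2 (WT Mitsui-7 against NM-403, 1.29), and the widest intervals belong to Il13 and Il5.

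Il1rl1, the IL-33 receptor, did not pass the limma test with any of its 3 probes, all above background on all 35 arrays. Over all 32322 probes tested, 12.8% passed for WT Mitsui-7 against control, 11.0% for p53het Mitsui-7 against control, 3.01% for WT and 1.23% for p53het Mitsui-7 against NM-403, and 2.78% for WT and 1.32% for p53het NM-403 against control. Of the 13 member probes, the probes that passed were those of the genes named above. The 3 Il1rl1 probes did not give the same pattern, as the plot by probe shows. The gene-level value of Il1rl1, also drawn in the plots by gene, is that of the brightest probe. Its group means were -0.23 to 0.28, against -6.07 to -4.87 for the other probes. It is also the Il1rl1 probe that shares a run of bases with another gene's probe. Whether the brightest probe measures Il1rl1 RNA alone was not tested, so its value does not show that the receptor was unchanged.

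The transcript variant 1 probe of Il1rl1 read -6.02 to -4.78 (median -5.45) in WT Mitsui-7 rats, -6.27 to -5.84 (median -6.10) in WT NM-403 rats and -6.24 to -5.60 (median -6.11) in WT controls. In p53het rats it read -6.0 to -5.05 (median -5.15) with Mitsui-7, -6.01 to -4.25 (median -5.87) with NM-403 and -6.46 to -5.43 (median -5.77) in controls. Of the 6 p53het Mitsui-7 rats, 5 were above all p53het controls, and 1 was not. Mitsui-7 minus control was 0.61 ± 0.24 in WT (interval 0.11 to 1.1, adjusted p = 0.0962) and 0.62 ± 0.24 in p53het rats (0.13 to 1.11, adjusted p = 0.0980). Within slides it was positive on 3 of 4 in WT and on 5 of 5 in p53het rats. Mitsui-7 minus NM-403 for this probe was 0.65 (interval 0.16 to 1.14, adjusted p = 0.176) in WT and 0.27 (-0.25 to 0.78, adjusted p = 0.705) in p53het rats.

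The transcript variant 2 probe of Il1rl1 read -5.32 to -4.43 (median -4.86) in WT Mitsui-7 rats, -6.12 to -4.84 (median -5.34) in WT NM-403 rats and -5.45 to -5.06 (median -5.19) in WT controls, and -5.54 to -4.35 (median -4.95), -5.75 to -5.24 (median -5.52) and -5.72 to -4.93 (median -5.50) in the p53het Mitsui-7, NM-403 and control rats. Its differences for Mitsui-7 against control were 0.36 (interval -0.01 to 0.73, adjusted p = 0.213) in WT and 0.46 (0.09 to 0.83, adjusted p = 0.102) in p53het rats, and against NM-403 0.53 (adjusted p = 0.126) and 0.51 (adjusted p = 0.267). The brightest probe gave 0.10 (-0.34 to 0.54) and 0.23 (-0.21 to 0.66) for Mitsui-7 against control, with levels of -0.19 to 0.79 in WT Mitsui-7, -0.39 to 0.58 in WT control, -0.27 to 0.65 in p53het Mitsui-7 and -0.64 to 0.39 in p53het control rats. It read -0.53 to 0.52 in WT NM-403 rats and -0.80 to 0.46 in p53het NM-403 rats, overlapping the other groups of each genotype. Its Mitsui-7 minus NM-403 difference was 0.18 (interval -0.26 to 0.61, adjusted p = 0.837) in WT and 0.51 (0.05 to 0.97, adjusted p = 0.368) in p53het rats. Over the 35 arrays the brightest probe correlated at r = 0.56 with the variant 2 probe and at -0.02 with the variant 1 probe, and at -0.70 with the 75th percentile of the array. The variant 1 probe had an r of -0.02 with that percentile. Such a correlation was not particular to Il1rl1: r was -0.58 for Il13, -0.57 for Stat6 and 0.54 for the brightest Il13ra1 probe. For Il33 and Il4r it was 0.05 and 0.06. These values are descriptions over arrays that share their scaling.

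**Figure D3:**
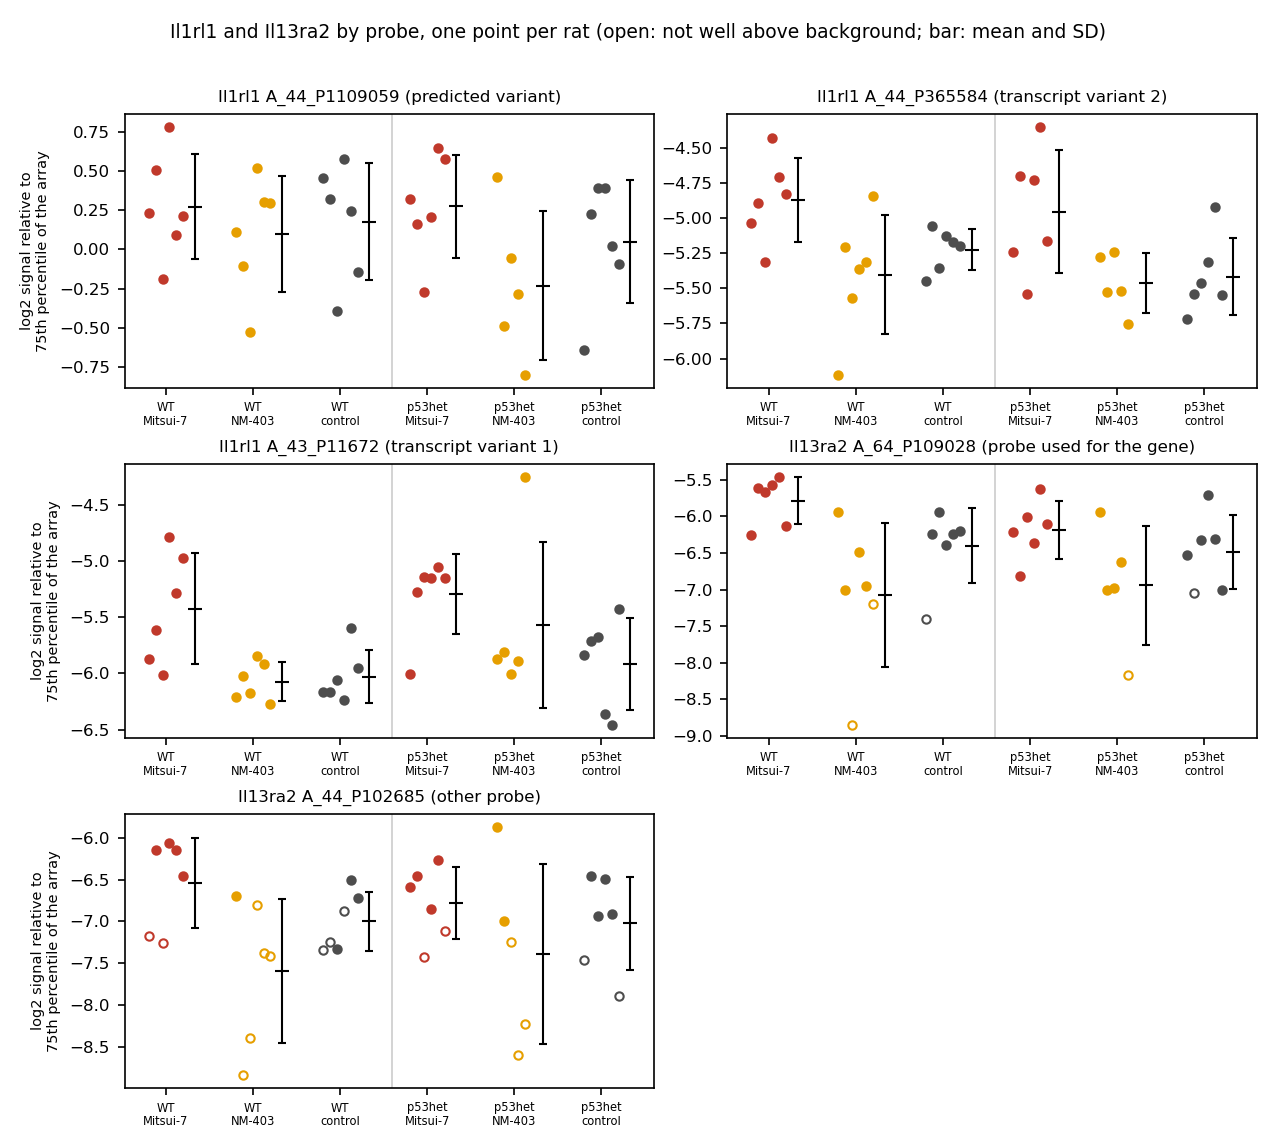
Level in every rat for the 3 probes of Il1rl1 and the 2 probes of Il13ra2, as log2 signal relative to the 75th percentile of the array; open points are not well above background and the bar gives mean and SD. The variant 1 probe of Il1rl1 is above all p53het controls in 5 of 6 p53het Mitsui-7 rats, and both Il13ra2 probes reach their lowest levels in NM-403 rats.

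Il4r, the chain that IL-4 and IL-13 receptors share, was lower with Mitsui-7 in both genotypes. In p53het rats it was at -2.29 to -1.79 (median -2.07) with Mitsui-7, against -2.21 to -1.07 (median -1.45) in controls. One control, replicate 6, lay among the exposed rats, and the other 5 controls were above all of them. The difference was -0.55 ± 0.17, 1.46-fold lower (limma adjusted p = 0.029, interval -0.89 to -0.20), and negative on all 5 shared slides (-1.07 to -0.21). It was no longer past the threshold without p53het control replicate 2, 4 or 5 (-0.48, -0.51 and -0.46, adjusted p = 0.0724, 0.0622 and 0.0910) or p53het Mitsui-7 replicate 4 or 5 (-0.50 and -0.50, adjusted p = 0.0709 and 0.0764). Without p53het control replicate 6 it was -0.68 (adjusted p = 0.00368).

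In WT rats Il4r was at -2.47 to -1.72 (median -1.98) with Mitsui-7, against -1.98 to -1.18 (median -1.53) in controls, and the groups overlapped. The difference was -0.49 ± 0.17, 1.41-fold lower (limma adjusted p = 0.0452, interval -0.83 to -0.15). It was negative on all 4 shared slides (-0.76 to -0.22). The call rested on single arrays: it was lost without WT control replicate 1, 2 or 5 (-0.45, -0.44 and -0.42, adjusted p = 0.0929, 0.109 and 0.119) or WT Mitsui-7 replicate 4, 5 or 6 (-0.41, -0.44 and -0.48, adjusted p = 0.142, 0.111 and 0.0687). With slide as a block it was -0.51 (adjusted p = 0.0034), and in p53het rats -0.57 (adjusted p = 0.00133).

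With NM-403, Il4r was at -1.84, -1.79, -1.29, -1.85 and -1.87 in the 5 p53het rats and at -2.08 to -1.53 (median -1.78) in WT rats. Against control the differences were -0.21 (interval -0.57 to 0.15) and -0.24 (-0.58 to 0.10), and neither passed (adjusted p = 0.692 and 0.566). The 2 nanotubes did not differ for Il4r past the threshold either. Mitsui-7 minus NM-403 was -0.34 (interval -0.69 to 0.02, limma adjusted p = 0.438) in p53het rats. In WT rats it was -0.25 (-0.59 to 0.09, adjusted p = 0.585). Within slides it was negative on all 4 shared slides in each genotype. The genes closest to Il4r over the 35 arrays were Sh2d3c, Snrk and Shank3 (r = 0.91, 0.90 and 0.89, and 0.85, 0.84 and 0.84 without group means). Several marker lists moved in the same samples with Mitsui-7. In each genotype 6 of 10 endothelial and 4 of 8 alveolar type 1 markers fell. Macrophage and monocyte markers rose, 8 of 11 in WT and 7 of 11 in p53het rats (medians 1.09 and 0.87). Of 8 fibroblast markers 3 fell and 1 rose in WT rats, and 2 fell in p53het rats. Over all genes 14.0% passed in WT and 11.6% in p53het rats, in either direction. The part of these cells in the Il4r values was not tested.

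Il13ra1, the other chain of that receptor, passed the test with neither of its probes. The brightest read -2.04 to -1.51 in WT Mitsui-7, -2.07 to -1.42 in WT NM-403, -2.30 to -1.57 in WT control, -2.04 to -1.39 in p53het Mitsui-7, -2.16 to -1.18 in p53het NM-403 and -2.18 to -1.19 in p53het control rats. The groups overlapped. Mitsui-7 minus control was 0.03 (interval -0.32 to 0.38, limma adjusted p = 0.948) in WT and 0.01 (-0.34 to 0.36, adjusted p = 0.977) in p53het rats. The second probe gave 0.32 (-0.12 to 0.77) and 0.40 (-0.05 to 0.85). The files place both Il13ra1 probes on chromosome 11 of rn4, and the RefSeq table of the newer build lists the gene on chromosome X.

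Il13ra2, the high-affinity IL-13 receptor, was dim and differed between the nanotubes in WT rats. It was at -6.25 to -5.47 (median -5.64) with Mitsui-7, against -8.85 to -5.94 (median -6.97) with NM-403, and WT controls were at -7.40 to -5.94 (median -6.24). With Mitsui-7, 4 of 6 rats were above all NM-403 rats. Mitsui-7 minus NM-403 was 1.29 ± 0.35, 2.44-fold higher (limma adjusted p = 0.0323, interval 0.57 to 2.00), and positive on all 4 shared slides (0.37 to 1.39). It was above background on 6 of 6 Mitsui-7 and 4 of 6 NM-403 arrays.

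This Il13ra2 call rested on single arrays and on the background correction. Without WT NM-403 replicate 3, which had the lowest level of all, it was 0.93 (adjusted p = 0.109), and without WT NM-403 replicate 2 or 6 it was 1.30 and 1.26 (adjusted p = 0.0515 and 0.0568). Leaving out WT Mitsui-7 replicate 2, 3, 4 or 5 gave 1.25, 1.26, 1.24 and 1.22 (adjusted p = 0.0592, 0.0576, 0.0736 and 0.0872). Normexp background correction gave 0.24 (adjusted p = 0.844), and the second probe 1.05 (interval 0.29 to 1.81, adjusted p = 0.149). With slide as a block it was 1.24 (adjusted p = 0.0209).

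Against control, neither nanotube passed for Il13ra2. In WT rats Mitsui-7 minus control was 0.62 (interval -0.10 to 1.33, adjusted p = 0.262) and NM-403 minus control -0.67 (-1.38 to 0.04, adjusted p = 0.380). In p53het rats the levels were -6.82 to -5.63 (median -6.16) with Mitsui-7, -5.94, -7.0, -6.99, -6.62 and -8.17 with NM-403 and -7.04 to -5.71 (median -6.43) in controls, and Mitsui-7 minus NM-403 was 0.75 (0.01 to 1.5, adjusted p = 0.396). In the WT comparison of the nanotubes, 5 of 11 macrophage and monocyte markers were higher and 3 of 7 neutrophil markers lower with Mitsui-7 (medians 0.61 and -1.08), and 1 of 8 fibroblast markers was higher (median 0.09). Over all genes 3.33% passed, in either direction, with a median of 0.02. Other lists moved too, such as ciliated (2 of 7 higher, median 0.50) and endothelial markers (2 of 10 lower, median -0.31). The macrophage list summed to 16.1 to 27.4 with Mitsui-7, against 13.0 to 17.7 with NM-403, the neutrophil list to 1.71 to 4.21, against 8.92 to 23.6, and the fibroblast list to 10.8 to 13.2, against 9.56 to 11.6. The part of these cells in the Il13ra2 values was not tested. Over the 35 arrays Il13ra2 followed Ccl11, Txnip and B3gnt9 most closely (r = 0.73, 0.72 and 0.72, and 0.54, 0.68 and 0.67 without group means).

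Stat6, the transcription factor of IL-4 and IL-13 signalling, passed no test. Its level was -2.31 to -1.88 in WT Mitsui-7, -2.42 to -1.81 in WT NM-403 and -2.25 to -1.66 in WT control rats, and -2.61 to -1.87, -2.59 to -1.84 and -2.64 to -1.59 in the p53het Mitsui-7, NM-403 and control rats. The groups overlapped, and the limma intervals for Mitsui-7 against control were -0.43 to 0.21 in WT and -0.34 to 0.30 in p53het rats (adjusted p = 0.734 and 0.955). STAT6 is regulated by phosphorylation, which arrays do not measure.

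No member passed a test between the genotypes. For p53het minus WT controls 0 of 9 members passed, and 0% of all genes (limma; 0 members and 483 of 24468 genes had an unadjusted p under 0.05). Their differences lay between -0.15 (Stat6) and 0.18 (Il5), with an interval of -0.19 to 0.20 for Il33 and -1.15 to 1.51 for Il5. Between the genotypes 0 of 9 members passed with Mitsui-7, beside 0.00817% of all genes (2 of 24468), and 0 of 9 with NM-403, beside 0%. At an unadjusted p under 0.05 limma counted 0 members and 1287 genes with Mitsui-7, and 0 members and 1039 genes with NM-403. The interaction of genotype with Mitsui-7 was -0.13 (interval -0.41 to 0.14) for Il33, -0.05 (-0.54 to 0.43) for Il4r and -0.49 (-2.37 to 1.39) for Il5. With NM-403 it was -0.12 (-0.40 to 0.16) for Il33. Neither interaction passed for any member or any gene (0%), with 0 members and 729 and 413 genes at an unadjusted p under 0.05. So the pass of Il33 in p53het and not in WT rats given Mitsui-7 is not a shown difference between the genotypes.

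Genes that IL-4 and IL-13 are known to induce were counted in the same way, and of 27 listed genes 24 were tested. Over all genes 14.0% passed in WT and 11.6% in p53het rats with Mitsui-7, in either direction, and 3.20% and 1.52% with NM-403, so more passed with Mitsui-7 among all genes too. Of the listed genes 11 rose with Mitsui-7 and 0 fell in WT rats and 10 rose and 0 fell in p53het rats (list medians 0.75 and 0.70, beside 0.03 and -0.02 over all genes). With NM-403 4 rose and 0 fell in each genotype (medians 0.44 and 0.33, beside 0.00 and -0.08 over all genes). The list was drawn up with earlier results of these data known, so these counts are a description.

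Named by smallest adjusted p, the Mitsui-7 group was led in both genotypes by the mucus genes Clca1, Muc5b and Agr2 and the chitinase Chia. Clca1 was at -0.31 to 1.23 in WT Mitsui-7 rats, against -5.92 to -2.66 in WT controls, and at -1.34 to 0.04 in p53het Mitsui-7 rats, against -7.79 to -4.88 in p53het controls. The groups were far apart, 31.7-fold in WT and 45.9-fold in p53het rats (limma adjusted p = 5.76e-09 and 9.58e-10). The lowest p53het control was under the lowest level that counted as well above background on any array (-7.76). The size of the p53het fold thus rests in part on signal at background. Agr2, which folds mucins, was at -0.74 to -0.07 with Mitsui-7, against -3.33 to -2.01 in control WT rats, 5.14-fold higher (adjusted p = 3.99e-12), and 4.21-fold higher in p53het rats (adjusted p = 1.08e-10). Muc5b was above background on 2 of 6 WT and 1 of 6 p53het control arrays and on all 12 Mitsui-7 arrays, with differences of 4.42 and 4.24 (adjusted p = 2.56e-08 and 8.67e-08).

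With NM-403 the called genes were Chia, Retnla, Arg1 and Fcgr2b in WT and Chia, Retnla, Clca1 and Ccl22 in p53het rats. Chia was at 4.10 to 5.17 in WT NM-403 rats, against 2.35 to 3.45 in WT controls (3.82-fold higher, limma adjusted p = 5.44e-08), close to the 3.88-fold of WT Mitsui-7. Retnla, an alternative macrophage gene, was 6.37-fold higher in WT and 5.45-fold higher in p53het rats given NM-403 (adjusted p = 4.61e-05 and 0.0005). Between the nanotubes, 6 listed genes were higher with Mitsui-7 than with NM-403 in WT rats and 2 lower, and 5 were higher and 0 lower in p53het rats. Over all genes 3.33% passed in WT and 1.37% in p53het rats, in either direction. The list medians were 0.34 and 0.16, beside 0.02 and 0.03 over all genes. The higher ones were led in both by Agr2, Clca1, Muc5b and the eosinophil chemokine Ccl24. Ccl24 was at -4.30 to -2.99 with Mitsui-7, against -5.47 to -4.81 with NM-403, in WT rats (3.13-fold higher, adjusted p = 5.75e-05). The 2 lower genes, named here after their values were seen, were Arg1 and Chi3l1, which differed by -0.89 and -1.01 (adjusted p = 0.00742 and 0.0193).

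**Figure D4:**
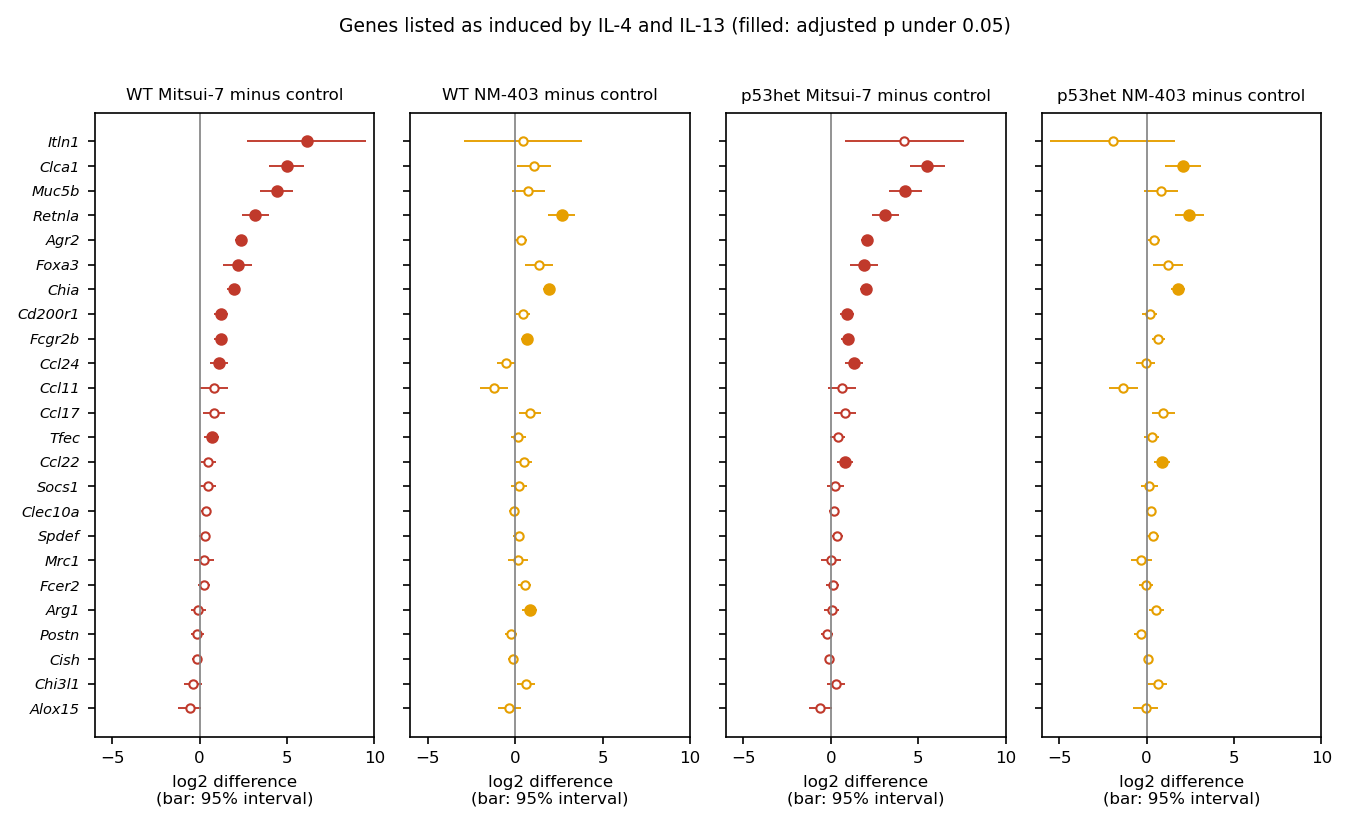
Log2 difference from control with its 95% interval for the 24 tested genes listed as induced by IL-4 and IL-13, for Mitsui-7 and NM-403 in WT and p53het rats, ordered by the WT Mitsui-7 value; filled points have an adjusted p under 0.05. Mitsui-7 has 11 filled points in WT and 10 in p53het rats, NM-403 has 4 in each, and all of them lie above 0.

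Of the other receptor subunits, adaptors and kinases of these pathways, 25 of 26 were tested. With Mitsui-7 3 rose and 0 fell in WT rats and 4 rose and 0 fell in p53het rats (list medians 0.17 and -0.01), and with NM-403 none passed (limma; medians 0.10 and 0.10). Over all genes 14.0% passed in WT and 11.6% in p53het rats with Mitsui-7, in either direction, and the shares of this list were near these. Csf2rb, the chain that the IL-3, IL-5 and GM-CSF receptors share, was at -6.40 to -5.13 in WT Mitsui-7 rats, against -8.50 to -6.49 in WT controls (3.87-fold higher, adjusted p = 0.000615), and 2.58-fold higher in p53het rats (adjusted p = 0.0182). It was above background on 2 of 6 WT and 1 of 6 p53het control arrays. Crlf2, the TSLP receptor chain, was 1.33-fold higher in WT and 1.40-fold higher in p53het rats given Mitsui-7 (adjusted p = 0.00705 and 0.00175), Jak2 was 1.26-fold higher in WT rats (adjusted p = 0.011), and Jak3 and the IL-33 co-receptor Il1rap were 1.42-fold and 1.38-fold higher in p53het rats (adjusted p = 0.00681 and 0.0359).

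Of 10 other type 2 cytokines and alarmins 7 were tested. In p53het rats given Mitsui-7 the epidermal growth factor family member Areg was 2.37-fold higher (-1.35 to -0.35 with Mitsui-7, against -2.79 to -1.78 in controls, limma adjusted p = 0.000902). In WT rats Csf2, which encodes GM-CSF, was 1.25-fold lower with Mitsui-7 than in controls and 1.30-fold lower than with NM-403 (adjusted p = 0.0450 and 0.0487). No other listed gene passed in a comparison of a nanotube with control or of the 2 nanotubes, and Il9 and Il6 were below background on all 35 arrays.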

How the data were processed

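RNA from the accessory lung lobe of 35 rats was hybridised to one-colour Agilent arrays, 1 array per rat. Per the submitters' processing notes, the scanner files were made with Agilent Feature Extraction 12.0.1.1. They hold a background-corrected processed signal per spot, an intensity on a linear scale as deposited. The authors' matrix of log2 values for 11555 probes, deposited with the series, was used as an alternative. It covers 5 of the 10 members, and its filter is not stated. Precision is limited by how many arrays there are.

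Of 62976 spots, 4259 control spots were left out and 221 to 699 outlier spots per array set to missing. Signals were taken to log2, the 75th percentile of the array was subtracted and spots of a probe were averaged. The filter asked for most spots of the probe to exceed background clearly on 5 arrays or more and for a value on 3 arrays or more in each group, which left 24468 genes. They were fitted in 1 model with a mean per group (limma 3.58.1, R 4.3.3, package data.table, version 1.17.8; empirical Bayes), and p-values were adjusted after Benjamini and Hochberg over all genes within a comparison, with a threshold of 0.05. Adjusted p-values are limma's, and values after ± are standard errors. Intervals cover 95%.

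The members and the gene lists were chosen with earlier results of these data known. The 10 members are always named, of each pathway list up to 4 called genes with the smallest adjusted p, and for a member the 3 genes most like it; genes outside this rule are named only as exceptions to a count. Listed genes' levels come from their brightest probe. The labels give no pairing of the rats by replicate number. Arrays with the same number had residuals correlated at a mean of 0.03 (85 pairs, -0.57 to 0.69), against -0.005 for other numbers (425 pairs). A mean correlation cannot exclude a pairing. The test was checked on simulated data in which arrays were independent, so that check does not cover the correlation within slides. Probe sequences come from the scanner files, and promoter sequences from RefSeq (GRCr8).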

Additional observations from a re-analysis of the deposited data

Results flagged for a closer look

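Among the 14 member probes in 6 groups (84 sets of values), 7 had a rat whose level stood apart from its group by Dixon's ratio, and chance gives about 1 in 20. The transcript variant 1 probe of Il1rl1 was high in p53het NM-403 replicate 5, at -4.25, with the next rat at -5.81. The same probe was low in p53het Mitsui-7 replicate 1, at -6.0, with the next at -5.27. Il4r was high in p53het NM-403 replicate 3, at -1.29, with the next at -1.79. Tslp was low in WT Mitsui-7 replicate 1, at -4.89, with the next at -4.42. Il4 was high in WT Mitsui-7 replicate 5, at -6.21, with the next at -8.99, and only that value was above background. Il13 was low in WT NM-403 replicate 3, at -9.49, and Il13ra2 in WT control replicate 1, at -7.40, both below background.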

How the results depend on the processing

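Of the members called, Il33 in p53het rats given Mitsui-7 passed in all 15 settings run, from -0.46 to -0.35. For WT Mitsui-7 against control (1 member as reported), 3 passed with slide as a fixed or random block, scan day, array weights or the replicate block (Il33, Il5 and Il4r), 2 with the array median, the authors' values or genes above background on all 35 arrays (Il33 and Il4r), and 0 with normexp, no filter, the compared groups alone or a 75th percentile without outlier spots, a setting added after seeing the data. For WT Mitsui-7 against NM-403 (1 as reported), 2 passed with slide as a fixed or random block, scan day or the replicate block (Il5 and Il13ra2), and 0 with quantile normalization, normexp, the authors' values, genes above background on all 35 arrays or the compared groups alone. The authors' values and the filter on all 35 arrays do not hold Il13ra2. With array weights Il5 passed and Il13ra2 did not. For p53het Mitsui-7 against control (2 as reported) 1 passed with normexp or the compared groups alone, and 3 with array weights (Il33, Il5 and Il4r). For p53het NM-403 against control (0 as reported) 1, Il33, passed with slide as a fixed or random block, scan day, array weights or the replicate block. The cause of these changes was not tested. Leaving out 1 rat gave 0 to 3 members for WT Mitsui-7 against control, 0 to 1 for WT Mitsui-7 against NM-403, 1 to 3 for p53het Mitsui-7 against control and 0 to 1 for p53het NM-403 against control. No called difference changed sign. Over all genes the number called moved by over 1.5 times with slide, scan day, array weights, normexp, the authors' values or the compared groups alone: 1744 to 5430 for WT Mitsui-7 against control (3418 as reported), 1408 to 5521 for p53het Mitsui-7 (2832), 491 to 1901 for WT NM-403 (783), 145 to 2393 for p53het NM-403 (373), 315 to 1541 for WT Mitsui-7 against NM-403 (814), 135 to 937 for p53het Mitsui-7 against NM-403 (334), 0 to 25 for p53het against WT Mitsui-7 (2) and 0 to 2 for the interaction with Mitsui-7 (0). The replicate block and the reported fit differed in no other member count, and the labels do not pair the rats by number. Signal near background limits Il4, Il13, Il5 and Il13ra2.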
